A study of Mus musculus with 884 samples.

Results

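The cells compared here were mid-S-phase mouse embryonic stem cells on days 3 and 4 of differentiation, each sequenced singly to read which parts of its genome had already been copied. A cell was taken when its title did not mark it as G1 and its replication score, the percentage of its called autosomal bins that had replicated, lay between 40 and 70%. This gave 31 of the 884 cells of the series, 13 from day 3 (d3) and 18 from day 4 (d4), out of 50 and 52 S-phase cells of those days. The line was CBMS1, a female line of the strain CBA/MsM, kept in 2i/LIF and turned into epiblast-like cells (EpiLCs) over 2 days. The EpiLCs were then aggregated in plain GK15 medium with no further factors added, a floating culture that the protocol describes as leading to neurectoderm. The d3 and d4 cells therefore came from the opening days of aggregation, and differed in the labels only by the day and the sorting gate. No label names separate cultures, so each day counted as 1 sample, and differences are given by size with no test. The intervals below are exact Clopper-Pearson 95% intervals over cells and cover counting error only. They make no allowance for the choice of regions by the same d3 and d4 cells.

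Mammalian genomes replicate in a fixed order, with megabase domains that fire together early or late in S phase. Early domains tend to be gene-rich, open and in the interior of the nucleus, and late domains tend to be compact and at its edge. When embryonic stem cells leave pluripotency, some domains move from early to late replication and others from late to early. In a single mid-S cell, early domains have been copied and late domains have not, so a domain that is replicated in more cells of one day than of another, at matched scores, replicates earlier on that day.

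Both days covered the same part of S phase. The scores ran from 40.8 to 68.4% at d3, with a median of 56.2%, and from 41.9 to 65.7% at d4, with a median of 52.6%. Their means were 53.7 ± 10.1% (SD, n = 13) and 53.4 ± 8.06% (SD, n = 18). The nearest cells left out by the limits had scores of 36.96 and 70.1% at d3 and of 37.3 and 77.6% at d4. Each cell was called in 29180 to 29820 of 30890 bins of 80 kb. The d3 cells were sorted from gates labelled 25 to 75% S and the d4 cells from gates labelled 25 to 65% S, and the gate did not fix the score. For example, 4 d3 cells of the 55% gate had scores from 51.5 to 68.4%.

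One d4 cell stood apart from the others. For each cell, the area under the curve gives how well the mean profile of all mid-S cells ranks its replicated above its unreplicated bins, where 1 is a perfect ranking. It was 0.842 to 0.934 over the 13 d3 cells and 0.893 to 0.960 over 17 of the d4 cells, but 0.241 in d4 cell 35, which had a score of 62.6%. The authors' own filters marked none of the 31 cells. The counts of changed bins are given with and without this cell, and its own value is named where it sets the range of a region described below.

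The G1 cells of the 2 days also differed. A G1 cell has not begun to replicate, so its bins should be called unreplicated. In 277 of the 29557 bins compared, at least 2 of the 6 d3 G1 cells or at least 2 of the 7 d4 G1 cells were called replicated. These bins are set apart below, and the other 29280 are called G1-clear. All 13 d3 cells had been corrected against a control merged from 2 d3 G1 cells, and all 18 d4 cells against one merged from 4 d4 G1 cells. No S-phase cell of another day used either control, so the day and the control cannot be told apart.

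Between d3 and d4, 10.0% of bins passed the size rule, in near-equal numbers each way. With so few cells, counting error also takes bins of unchanged timing past a fixed size. Its part in the 10.0% was not tested. In 1450 of 29557 bins (4.91%) the share of cells replicated was higher at d4 by 0.3 or more, and in 1513 bins (5.12%) it was lower by 0.3 or more. The 1450 bins are called earlier and the 1513 bins later. Over all bins the median difference was 0.0 and 56.8% of bins differed by less than 10 points. Differences of 50 points or more were found in 0.717% of bins towards earlier and 1.502% towards later replication, and of 70 points or more in 0.0372 and 0.531% of bins. Without d4 cell 35 the counts were 1508 earlier and 1862 later bins. Among G1-clear bins they were 1437 earlier (4.91% of 29280) and 1369 later (4.68%). Bins that were not G1-clear made up 9.52% of the later bins and 0.897% of the earlier bins, against 0.937% of all bins compared. The G1-clear later bins still differed between the G1 cells of the 2 days. Their mean share replicated was 3.75% in d3 G1 cells and 0.0330% in d4 G1 cells. Over all G1-clear bins it was 1.32 and 1.47%. G1-clear therefore does not mean free of a difference between the G1 cells. With 13 d4 cells matched one for one to the d3 cells in score, 2196 bins were earlier and 1677 later.

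The 2 neighbouring steps share cells with this one, so their counts are given side by side only. From d2 to d3, 1619 of 29552 bins (5.48%) were earlier and 844 (2.86%) later by the same rule. From d4 to d5, 1118 of 29759 bins (3.76%) were earlier and 691 (2.32%) later. The groups differed in size, with 35 cells at d2 and 20 at d5, and fewer cells give more differences past a fixed size by counting error.

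The largest class of changed bins, in each direction, went from one end of S phase to the other. With early defined as a share above 0.6 and late as a share below 0.4, 583 of the 1450 earlier bins (40.2%) went from late at d3 to early at d4. A further 250 went from late to the middle range and 323 from the middle range to early, and the rest changed within the early or the late class. Of the 1513 later bins, 745 (49.2%) went from early to late, 232 from early to the middle range and 308 from the middle range to late. Among the G1-clear later bins, 619 of 1369 (45.2%) went from early to late. Over all bins, 13070 (44.2%) were early on both days and 10927 (36.97%) late on both days.

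In cells that had no part in choosing the bins, the earlier bins kept high shares after d4. In the mid-S cells of d3 and d4, which chose them, the earlier bins had mean shares of 31.7 and 72.01%. The mean was 62.7% in d0 cells and 50.5% in d2 cells, and from d5 on it was 72.9% (d5), 74.1% (d6), 77.4% (d7) and 73.7% (epiblast stem cells, EpiSCs). The G1-clear later bins had means of 70.2 and 26.8% in the cells of d3 and d4. They were at 45.3% in d0 cells and 39.7% in d2 cells, and then at 30.6% (d5), 27.8% (d6), 28.3% (d7) and 36.1% (EpiSCs). Over all bins the mean stayed between 52.4 and 57.4% in these groups. The bins were chosen by the difference between d3 and d4, so the distance of d3 from the other groups is favoured by the choice and is only a description.

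The d3 values lay outside those of both neighbours. In 1237 of the 1450 earlier bins (85.3%), the share at d3 was below that at d2 and at d4, against 31.7% of all bins. In 1270 of the 1369 G1-clear later bins (92.8%), it was above both, against 28.7% of all G1-clear bins. The choice of bins uses the d3 values, so these counts describe the bins and are no support for d3 standing apart. A comparison of d2 with d5 uses neither d3 nor d4. The earlier bins rose there from 50.5 to 72.9%, and 36.4% of them were higher at d5 by 0.3 or more, against 7.88% of all bins. The G1-clear later bins went from 39.7 to 30.7%, and 15.3% of them were lower at d5 by 0.3 or more, against 2.92% of all G1-clear bins. Of all bins, 44.2% were early and 36.97% late at both d3 and d4. Early bins have little room to rise and late bins little room to fall, so all bins are a low baseline. No baseline of bins with a like share at d2 was computed, and the part of this was not tested. Between d2 and d5 the mean of the G1-clear later bins thus moved by 9.00 points, and between d3 and d4 by 43.4 points. For the earlier bins the same moves were 22.4 and 40.3 points. The moves between d3 and d4 are set in part by the rule, which kept only bins that differed by 0.3 or more. The moves between d2 and d5 are not, so their smaller size is no support for d3 standing apart.

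**Figure D1:**
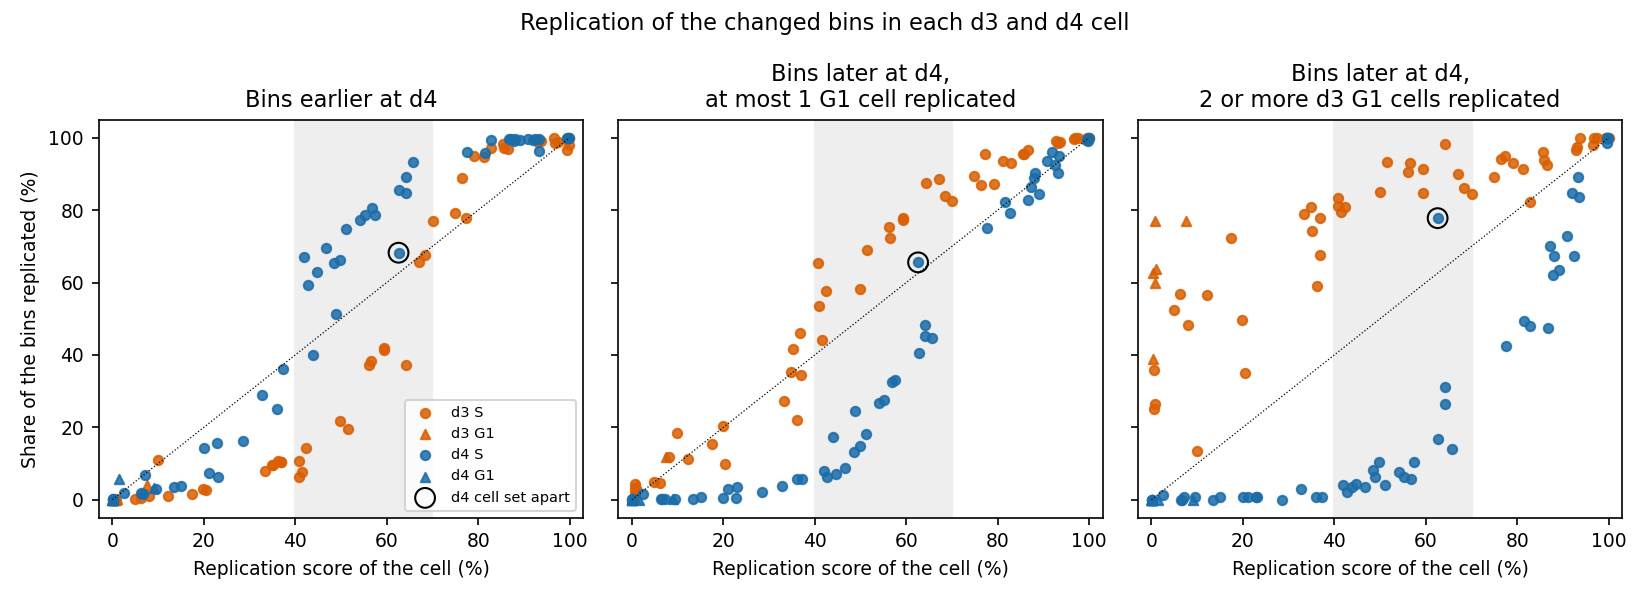
Each point is 1 cell, with its replication score (%) on the horizontal axis and the share of the named set of bins it had replicated (%) on the vertical axis, for S-phase cells (circles) and G1 cells (triangles) of d3 and d4. The grey band is the window of 40 to 70%, the dotted line marks equal values and the ring marks d4 cell 35, which had replicated 65.6% of the G1-clear later bins. Within the band the d4 cells lie above the d3 cells of like score in the first panel and, apart from the ringed cell, below them in the other panels. In the right panel most d3 cells lie above the line, also at scores near 0.

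The difference was seen cell by cell. The share of the earlier bins that a cell had replicated ran from 6.56 to 67.6% over the d3 cells, with a median of 36.99%, and from 40.3 to 93.3% over the d4 cells, with a median of 72.3%. For the G1-clear later bins it ran from 44.2 to 88.7% at d3, with a median of 72.2%, and from 6.21 to 65.6% at d4, with a median of 25.6%. The 65.6% was d4 cell 35, and the highest of the other d4 cells had 48.2%. The ranges of the 2 days overlapped. The share also rises with a cell's score, and the part of this in the overlap was not tested. The share of earlier bins minus the share of G1-clear later bins takes much of the rise with score away. It ran from -59.1 to -16.1 points at d3 and from 2.66 to 60.7 points at d4, so that every d4 cell lay above every d3 cell, as the choice of bins favours. Without d4 cell 35 the lowest d4 value was 22.5 points. The cells of d2 and d5, which did not choose the bins, lay at -2.07 to 27.7 and 5.65 to 60.8 points. The d3 cells did choose them, so how far d3 lies from d2 and d5 is set in part by the choice.

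Cells of d3 and d4 outside the window showed the same direction. With scores of 20 to 40%, the earlier bins were replicated in 8.95% of calls in 7 d3 cells and in 19.4% in 8 d4 cells, although the d4 cells had the lower mean score, 27.7 against 33.4%. The G1-clear later bins were replicated in 31.2 and 3.10%. All bins with the same mean share in the window cells differed between these cells by -7.90 points for the earlier bins and by -8.25 points for the G1-clear later bins. The changed bins differed beyond that by 18.4 and -19.8 points. With scores of 70 to 90%, where 10 d3 and 8 d4 cells had mean scores of 80.0 and 85.1%, the earlier bins were replicated in 90.02 and 98.6% and the G1-clear later bins in 91.5 and 83.7%. Beyond bins of the same timing, the differences there were 6.32 and -9.93 points, smaller than at scores of 20 to 40%. These cells used the same d3 and d4 controls as the window cells.

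The changed bins formed runs. Regions were defined as runs of at least 5 changed bins, or 400 kb. There were 59 regions that were earlier at d4, with a median length of 480 kb and a longest of 1520 kb, and 78 that were later, with the same median and a longest of 1120 kb. They held 31.2% of the earlier and 36.02% of the later bins. Among G1-clear bins there were 58 earlier and 59 later regions. Without d3 cell 27 the number of earlier regions was 96, and without d3 cell 31 it was 89. These 2 cells had the highest scores of d3, 68.4 and 67.1%.

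Of the 59 earlier regions, 29 had both flanks early at d4, counting the 3 bins on either side, 5 had both flanks late and 15 had one of each. At d3, 14 of them had both flanks early. Of the 59 G1-clear later regions, 30 had both flanks late at d4, 1 had both early and 12 had one of each. The difference inside the regions is fixed by the rule that defines them. The rule also ends a region where the next bin does not pass it, and the flanks are read in the same cells. The flank values are therefore not free of the choice and are only a description. In the middle of the earlier regions the mean share went from 24.4% at d3 to 70.1% at d4. At 1600 kb to the left it was 65.4 and 69.7%, and to the right 58.4 and 62.7%. In the middle of the G1-clear later regions it went from 75.4 to 25.1%. At 1600 kb to the left it was 51.9 and 44.6%, and to the right 46.9 and 36.1%.

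**Figure D2:**
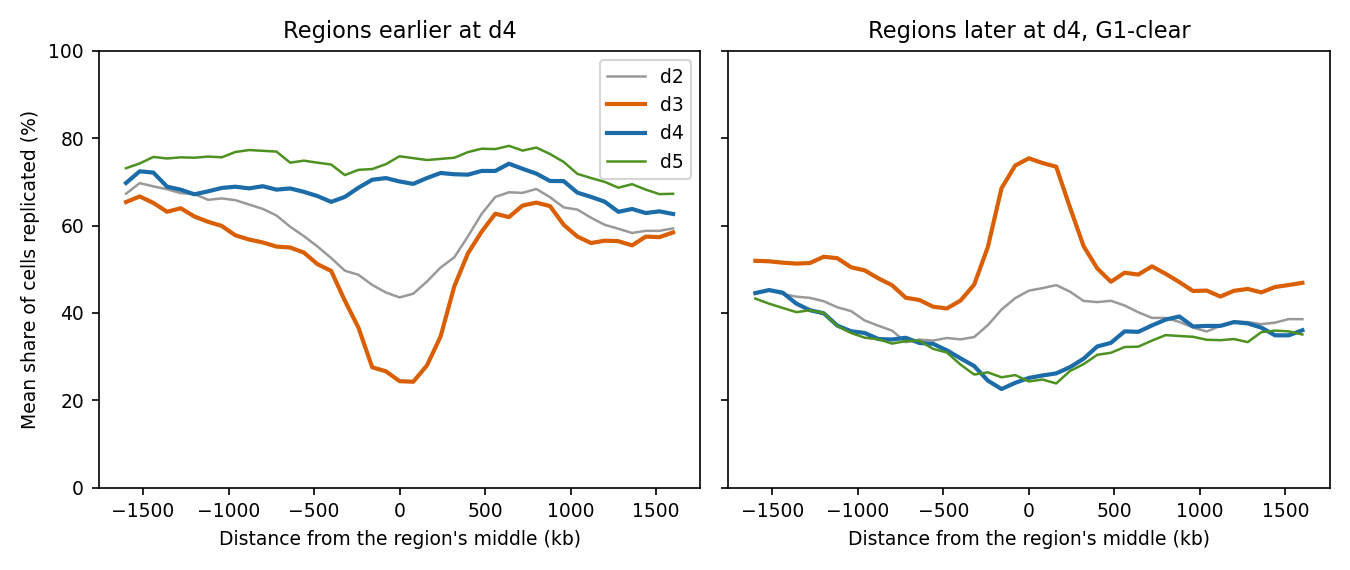
Mean share of mid-S cells replicated (%) against the distance from the middle of a region (kb), over the 58 earlier regions and the 59 later regions of G1-clear bins, for d2, d3, d4 and d5. The d3 line dips to 24.4% in the middle of the earlier regions and peaks at 75.4% in the middle of the later ones, where the d2 line is at 43.6 and 45.1% and the d5 line at 75.9 and 24.3%.

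The 8 earlier regions with the largest mean differences changed by 50.5 to 65.3 points and were 400 to 1520 kb long. All named regions, earlier and later, were picked for their differences in these same d3 and d4 cells. Their d3 and d4 values and intervals are therefore favoured by the choice and are only a description. Positions are in the mouse build mm9. The change was largest in a 640-kb region at chr12:92640001-93280000, where a d3 cell had replicated between 0 and 100% of the region, with a median of 0%, and a d4 cell between 50 and 100%, with a median of 100%. In all, 2 of 13 d3 cells (15.4%, 1.92 to 45.4%) and 17 of 18 d4 cells (94.4%, 72.7 to 99.9%) had replicated more than 50% of it. Most d3 cells had none of it replicated, and the groups overlapped only between 50 and 100%.

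At chr4:142000001-142400000, 400 kb long, the d3 cells ran from 0 to 40%, with a median of 0%, and the d4 cells from 0 to 100%, with a median of 100%. No d3 cell of 13 (0 to 24.7%) and 12 of 18 d4 cells (66.7%, 40.99 to 86.7%) had replicated most of it. The same chromosome held the longest of the 8, chr4:151920001-153440000, with 1520 kb. Its d3 cells ran from 0 to 100%, with a median of 26.3%, and its d4 cells from 0 to 100%, with a median of 100%. The 0% was d4 cell 35, and the lowest of the other d4 cells had 21.1%. The region was mostly replicated in 2 of 13 d3 cells and in 16 of 18 d4 cells (88.9%, 65.3 to 98.6%). Both regions were replicated in about equal shares of d2 cells, 49.1 and 49.3% on average.

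At chr19:57840001-58560000 the median cell had replicated 11.1% at d3 and 100% at d4, with 2 of 13 and 13 of 18 cells past 50%. At chr9:101920001-102320000 the medians were 0 and 80%, with 3 of 13 and 16 of 18 cells past 50%. Cells of both days reached 0 and 100% in the region of chromosome 9, so their ranges overlapped fully and only the numbers of cells differed. Another 2 regions lay on chromosome 12, at chr12:30400001-30880000, where the mean share went from 3.85 to 55.6%, and at chr12:107840001-109200000, where it went from 9.95 to 61.1%. The last was chr11:112400001-113440000, with 18.3 and 68.8%. In all 8, the mean share at d5 was between 58.3 and 94.5%, and at d2 between 25.2 and 60.7%. The G1 cells were called unreplicated in these regions, apart from at most 1 G1 cell of each day in a region.

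The 8 later regions with the largest differences, of -96.0 to -74.5 points, were all called replicated in d3 G1 cells. In the first, chr14:7280001-7840000, every d3 cell with calls (11 of 11) was at 100%, and 17 of the 18 d4 cells were at 0%. The other, d4 cell 35, was at 71.4%. All 6 d3 G1 cells and none of the 7 d4 G1 cells were called replicated there. The region at chr4:60080001-60720000 was likewise replicated in 13 of 13 d3 cells, 3 of 18 d4 cells, 6 of 6 d3 G1 cells and 0 of 7 d4 G1 cells. In the other 6 regions, 2 to 5 d3 G1 cells and no d4 G1 cell were called replicated. In 4 of those 6, d4 cell 35 was the only d4 cell past 50%. These 6 were chr1:84960001-85360000, chr5:10800001-11520000, chr7:15280001-16400000, chr14:43840001-44880000, chr12:18560001-19600000 and chr3:93520001-93920000.

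These 8 regions also differed in their calls. Between 72.5 and 99.5% of d3 calls could be made in them, against 97.6 to 100% of d4 calls, and over all bins the shares were 99.7 and 99.8%. Of the later bins that were not G1-clear, 45.8% lay within 400 kb of a bin with too few calls. The same held for 28.2% of all bins that were not G1-clear and for 2.07% of all bins compared. In the later bins that were not G1-clear, d3 G1 cells were called replicated in 38.8 to 77.05% and d4 G1 cells in 0.0%. The part of the G1 calls in the difference between d3 and d4 was not tested.

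Chosen again among G1-clear bins, after these values were seen, the 8 later regions with the largest differences changed by -69.0 to -56.7 points. None is the same as a region of the first 8, but chr12:19760001-20160000 begins shortly after chr12:18560001-19600000 of that list. In it, 86.2% of d3 calls could be made and 1 of 6 d3 G1 cells was called replicated. The first, chr9:3040001-3440000, lies near the first bins of its chromosome. Its d3 cells ran from 60 to 100%, with a median of 100%, and its d4 cells from 0 to 80%, with a median of 20%. It was mostly replicated in 13 of 13 d3 cells (100%, 75.3 to 100%) and in 3 of 18 d4 cells (16.7%, 3.58 to 41.4%). One of the 6 d3 G1 cells was called replicated there, and no d4 G1 cell was.

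At chr17:21920001-22640000 the d3 cells ran from 44.4 to 100%, with a median of 100%, and the d4 cells from 0 to 100%, with a median of 11.1%. The cells past 50% numbered 12 of 13 at d3 and 3 of 18 at d4, and no G1 cell of either day was. A further region of chromosome 17, chr17:22880001-23280000, lay 240 kb beyond it, with 11 of 13 and 5 of 18 cells past 50%. At chr7:49520001-50480000, the longest of this list with 960 kb, the d3 cells ran from 8.33 to 100% and the d4 cells from 0 to 100%, with medians of 100 and 12.5%. There 12 of 13 d3 and 3 of 18 d4 cells were past 50%, and no G1 cell was. Without d4 cell 35, which was at 100%, it was 2 of 17 d4 cells.

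The other 4 showed the same order of days. They were chr7:62480001-62960000 (mean shares of 85.9% at d3 and 21.3% at d4), chr4:2960001-3680000 (89.8 and 28.3%), chr12:19760001-20160000 (68.8 and 11.1%) and chr9:17200001-18000000 (66.9 and 9.44%). In the last of these, 2 d3 cells were under 20% and 4 over 80%, so the d3 cells were the most mixed there. The region of chromosome 4 also lies near the first bins of its chromosome. In the region of chromosome 7 from 49520001, 32 of 35 d2 cells were past 50% (91.4%, 76.9 to 98.2%) and 4 of 20 d5 cells (20%, 5.73 to 43.7%). In that of chromosome 17 from 21920001, 27 of 35 d2 cells (77.1%, 59.9 to 89.6%) and 10 of 20 d5 cells (50.0%, 27.2 to 72.8%) were. Over these 8 regions the mean shares were 37.5 to 96.8% at d0 and 28.9 to 85% at d2, and then 8.54 to 39.4% at d5 and 2.79 to 19.6% at d7. At d2, 6 of the 8 lay above the 52.4% of all bins, and at d5 none lay above the 55.8% of all bins.

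**Figure D3:**
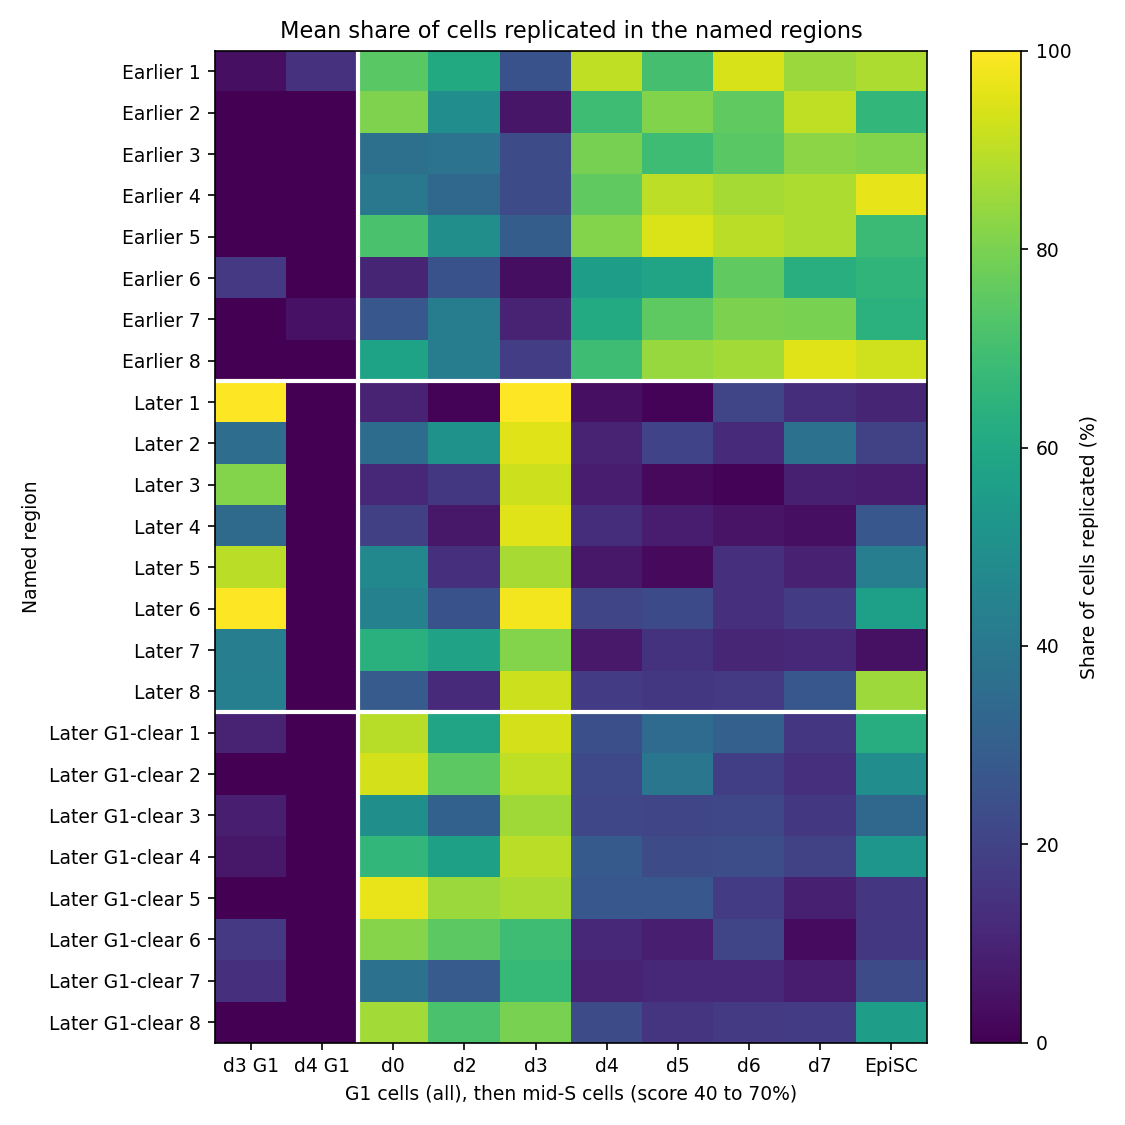
Mean share of cells replicated (%, colour) in the 8 earlier regions, the 8 later regions and the 8 G1-clear later regions (rows, by rank of the mean difference), in the G1 cells of d3 and d4 and in the mid-S cells of each group (columns). The 8 later regions of the middle block are bright in d3 G1 cells, from 34.7 to 100%, and dark in d4 G1 cells, at 0%. The G1-clear later regions are bright at d0, d2 and d3 in most rows and dark from d4 on, with EpiSCs between.

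In each list of named regions, most values of single cells lay near either end, but this did not hold in every region. Over the 8 earlier regions, 25.0% of the values of single d3 cells and 34.03% of those of single d4 cells lay between 20 and 80% of the region, and the rest lay below or above. Over the 8 G1-clear later regions, 26.2 and 26.4% did. At chr9:3040001-3440000, however, 12 of 18 d4 cells lay from 20 to 80%, and at chr9:17200001-18000000 7 of 13 d3 cells did. The regions were picked for large differences in these same cells, which favours values near either end. No such share was computed for regions that were not picked. Values from 1 cell in 8 regions share that cell, so the values are not independent. Over the whole genome d3 had the largest share of bins in the middle range. At d3, 24.4% of bins were replicated in between 30 and 70% of cells, against 17.8% at d4, 17.7% at d2 and 15.1% at d5. The d3 group also had the fewest cells, 13, and the part of that was not tested. Bins replicated in 90% or more of cells, and in 10% or less, were fewest at d4, with 25.4 and 17.6%. These d4 values include d4 cell 35, whose area under the curve was 0.241. They were not computed without it, and its part was not tested.

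**Figure D4:**
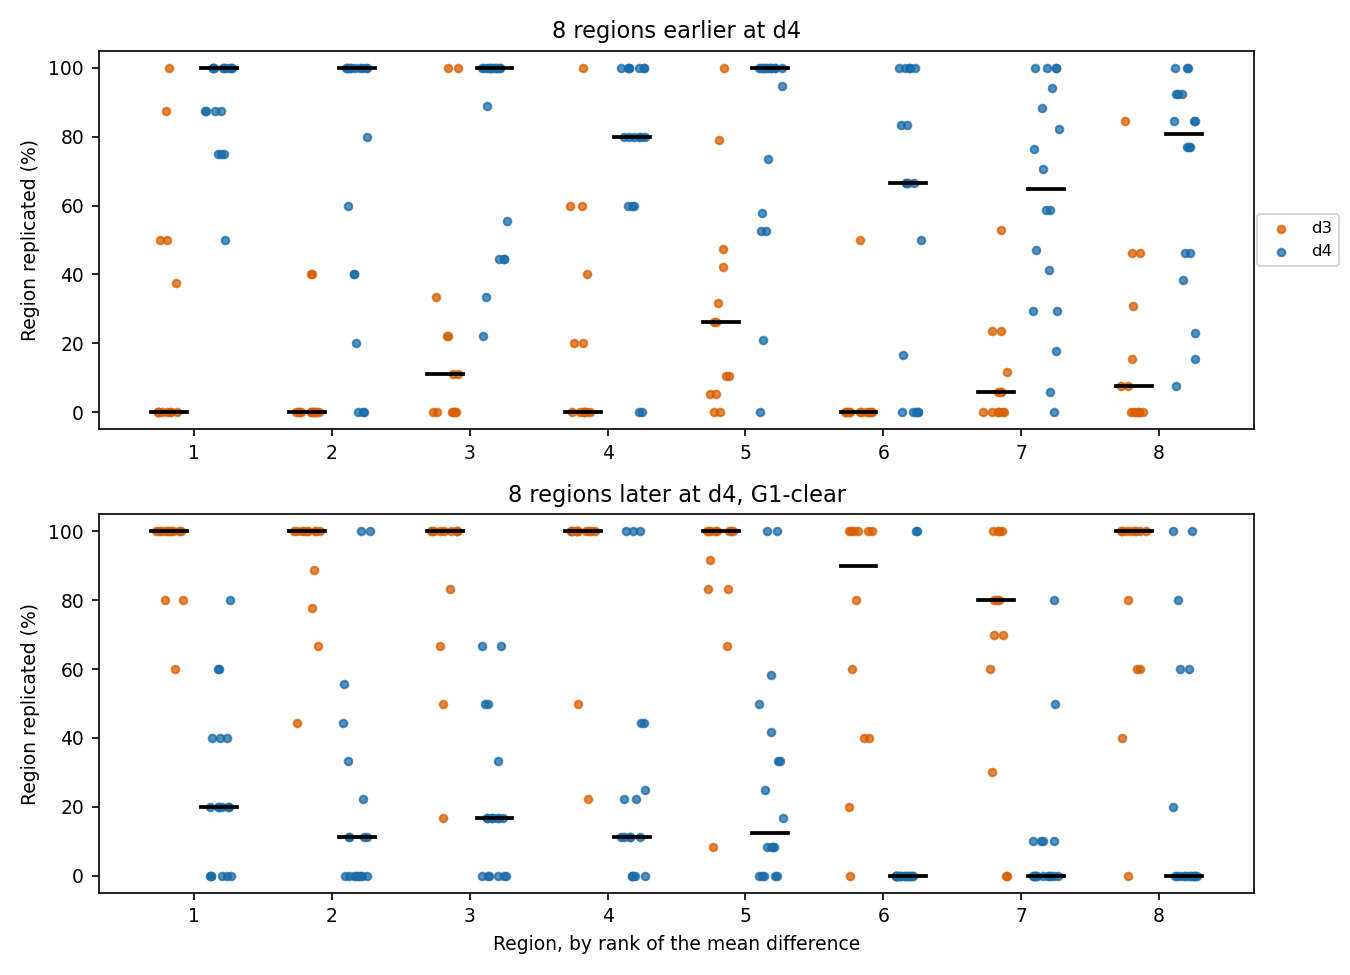
Percentage of each named region that each mid-S cell had replicated (vertical axis), for the 13 d3 and 18 d4 cells in the 8 earlier regions (top) and the 8 G1-clear later regions (bottom), ordered by rank on the horizontal axis. Points are single cells, shifted sideways so that they can be told apart, and bars are medians. In the earlier regions the d3 medians are between 0 and 26.3% and the d4 medians between 64.7 and 100%.

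Chromosome 12 had the highest share of earlier bins. There 12.98% of 1433 bins were earlier, against 7.62% on chromosome 5, the next highest, 2.25% on chromosome 3, the lowest, and a median of 4.53% over the 19 autosomes. It also held 3 of the 8 named earlier regions. Later bins were most frequent on chromosome 6 (8.55%) and chromosome 3 (8.08%), and least on chromosome 11 (2.09%). Chromosome 12 also had the highest share of earlier bins in G1-clear bins (13.3%) and without d4 cell 35 (13.05%).

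Chromosome 12 also differed in its mean share over all bins. Its mean share was 45.9% at d3 and 50.7% at d4, a difference of 4.78 points with a median of 5.56 points over its bins, while the means of the other autosomes differed by -3.79 to 2.77 points. The share of chromosome 12 that a cell had replicated, minus its score, was -12.4 to -4.30 points over d3 cells, with a median of -8.09, and -9.04 to 2.33 points over d4 cells, with a median of -2.96. The medians of d2 and d5 were -3.08 and -2.66 points, so the d3 cells were the lower ones. In 2 G1 cells, chromosome 12 also stood out. It was called replicated to 49.4% in d3 G1 cell 3 and to 28.5% in d4 G1 cell 2, and the next highest G1 cells had 4.84 and 6.77%. Neither of the 2 cells was in a merged control, and d3 G1 cell 3 also had 57.6% of chromosome 6 and 21.1% of chromosome 8 called replicated. The part of these calls in the shift of chromosome 12 was not tested. Of all autosomes, chromosome 12 also held the most bins that were not G1-clear. Its means and medians given here include those bins and were not computed without them.

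**Figure D5:**
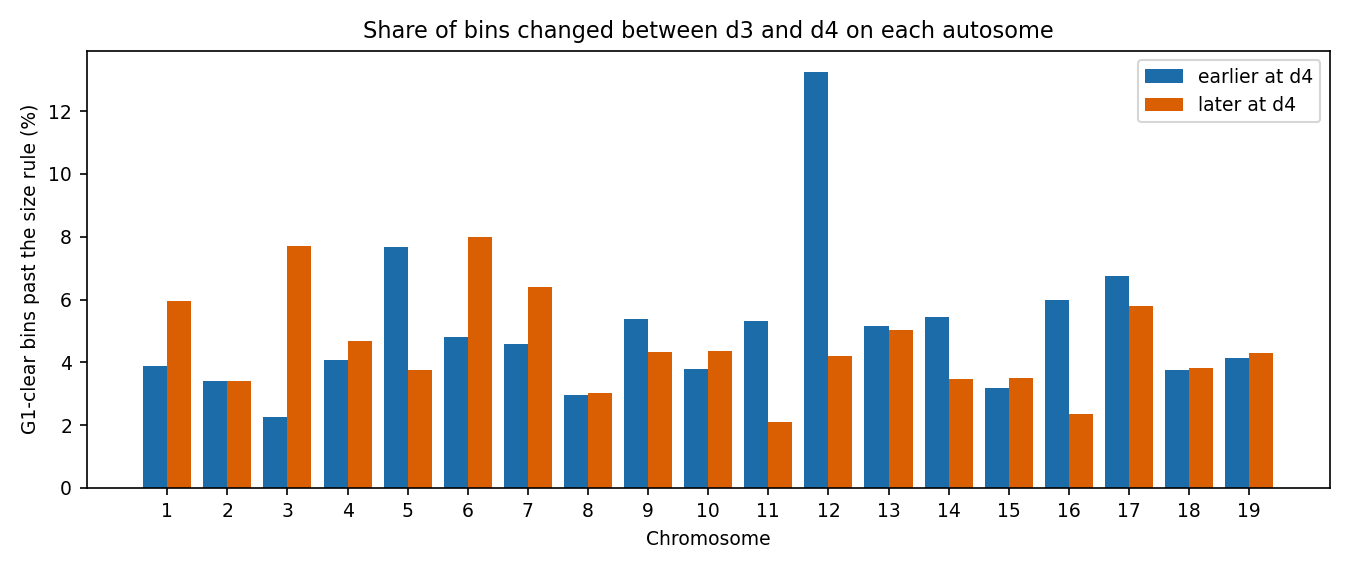
Percentage of the G1-clear bins of each autosome (horizontal axis) that were earlier or later at d4 by 0.3 or more in the share of cells replicated (vertical axis, from 0). Chromosome 12 stands out for earlier bins with 13.3%, and chromosomes 6 and 3 have the highest shares of later bins with 7.99 and 7.71%.

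Later bins were more frequent than other bins near the start of a chromosome, and earlier bins near its end, though most bins of both kinds lay at neither. Mouse autosomes have their centromere at the start. The first 10 Mb of called sequence held 13.2% of the later bins, 12.5% of the G1-clear later bins, 6.48% of the earlier bins and 7.80% of all bins compared. The last 10 Mb held 4.89% of the later, 5.19% of the G1-clear later and 15.3% of the earlier bins, against 7.86% of all. Bins within 400 kb of one with too few calls made up 8.77% of the G1-clear later bins and 0.897% of the earlier bins, against 1.82% of all G1-clear bins and 2.07% of all bins.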

How the data were processed

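Single sorted cells were amplified, sequenced as single-end reads and, per the submitters' processing notes, handled with cutadapt, BWA 0.7.10-r789 and Picard on build mm9. The authors deposited a table of binary calls per 80-kb bin (1 replicated, -1 unreplicated, 0 no call) and a replication score per cell as a fraction, printed here as a percentage. Read counts are not used here, so the depth behind a call is unknown. How the calls were made is not given in the sources used here.

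The share of cells replicated was the number of 1 calls over all nonzero calls, in autosomal bins called in at least 50% of the cells of each day. A bin changed when the shares differed by 0.3 or more. The named regions were the 8 runs of at least 5 bins in each direction with the largest mean difference, and the G1-clear list was added after seeing the data. The cells, bins and lists were chosen with earlier results of these data known. Since no gene annotation of mm9 was used here, regions are given by position only. Code in Python 3 (numpy, scipy, pandas) was tested on simulated data. Cells are numbered in accession order within a day.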

Additional observations from a re-analysis of the deposited data

Results flagged for a closer look

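One d3 G1 cell had a replication score of 7.52%, while the other 5 lay between 0.319 and 1.04%. It is d3 G1 cell 3, in which 57.6% of chromosome 6, 49.4% of chromosome 12 and 21.1% of chromosome 8 were called replicated. One d4 G1 cell, cell 1, had a score of 8.99%, while the other 6 lay between 0.0 and 1.54%, and its replicated calls were spread over all autosomes. The d3 G1 cells had replicated calls in at most 0.0691% of the earlier bins, apart from 1 cell with 4.15%. In the G1-clear later bins, 1 d3 G1 cell had 11.9% and the next 4.10%. The limit used to pick out such gaps is passed by chance in about 1 in 20 groups. These 4 values come from 3 sets of bins in the same 13 cells and are not independent.

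Over all later bins, G1 cells were called replicated in 9.79% of calls at d3 and in 0.0299% at d4. G1 cells were not among the cells compared between the days. Some of them made up the merged controls of each day, however, and their calls defined the G1-clear bins. This difference between the G1 cells of the 2 days was not tested.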

How the results depend on the processing

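The counts were 1450 earlier and 1513 later bins, and 2.00 earlier and 2.64 later regions per 1000 bins compared. With a size rule of 0.2 they became 3072 and 2960 bins and 6.09 regions per 1000 in each direction, and with 0.4 they became 624 and 840 bins and 0.744 and 1.59 regions. With scores of 45 to 65% (7 d3 and 13 d4 cells) there were 3.42 earlier regions per 1000 bins, and with 13 d4 cells matched in score 2196 earlier bins and 3.69 earlier regions. Runs of at least 3 bins gave 6.496 earlier and 7.00 later regions, and runs of at least 10 bins 0.406 and 0.304. A shift of the fitted midpoint of replication by at least 15 points, over S-phase cells with scores of 5 to 95%, gave 2991 earlier and 2559 later bins. It included 1006 of the 1450 earlier and 1174 of the later bins, with none in the opposite direction. Leaving out each cell in turn gave 1261 to 1879 earlier bins, 1392 to 1862 later bins, 1.62 to 3.25 earlier regions and 2.33 to 3.65 later regions per 1000 bins. The highest count of earlier regions came without d3 cell 27. The other alternatives stayed within 1.5 times these counts: bins called in at least 80% of cells, leaving out d4 cell 35, G1-clear bins, and the last 2 together. Except for the rules on size and run length, where the threshold itself sets the count, the cause was not tested.

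All values of the named regions under their alternatives kept their direction and stayed within the counting interval of the d3 cells. The alternatives reuse cells that chose these regions for large differences, so this was largely fixed by the choice. The ratio of chromosome 12 to the median autosome in earlier bins was 2.86, and 2.06 to 2.89 under its alternatives. Of 76 values by chromosome, 47 left their counting interval. The bands of scores outside the window gave no reversal when widened. A comparison with a G1 control shared by both days could not be run, since none was, and leaving out the cells marked by the authors' filters changed nothing, since none was marked. No paired analysis was possible because the cells of different days share only numbers given in accession order. With 13 and 18 cells, 1 cell is worth 7.69 points of a d3 share where all 13 were called and 14.3 points where only 7 were, and the number of cells limits every share given here.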
